A study of Mus musculus with 4 samples.

Results

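Epithelial cells of the embryonic mouse submandibular gland that carried RNA of the transcription factor gene Sox10 are described here, cell set against cell set within one library. The members were barcodes of the submandibular epithelium library with at least 500 detected genes and at most 10% of UMIs (unique molecular identifiers, 1 per captured RNA molecule) from mitochondrial genes, and with at least 1 Sox10 UMI and at least 1 Epcam UMI. Epcam encodes a surface adhesion protein of epithelial cells. The rule kept 921 cells of 15351 barcodes in the series and of 3896 in the library. They were set against 2646 cells of the same library with 0 Sox10 UMIs and at least 1 Epcam UMI, called Sox10-0 cells below.

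The series holds single-cell RNA profiles of submandibular and parotid glands from ICR mouse embryos at embryonic day 12. Tissue of about 10 glands of each kind was pooled, the epithelium was parted from the mesenchyme with Dispase II, and each was brought to single cells with a cold protease mix, which gave 4 libraries, 1 per gland and tissue. The labels name no genotype, treatment or transgene, and 10x Chromium libraries were made of all 4. With 1 library per group, and with cells chosen by their own Sox10 counts, no difference below has a test or a replicate. Each value describes these cells, and the 95% intervals cover counting error only.

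Sox10 encodes an HMG-box transcription factor that is best known from neural crest and glial cells, and it is also made in the distal epithelium of salivary and lacrimal glands. Salivary epithelium grows as end buds that branch under FGF signals from the mesenchyme, while the stalk behind them forms ducts. FGF10 acts through FGFR2 on the bud and raises the ETS factors Etv4 and Etv5, and SOX9 lies upstream of SOX10 in this setting. Ngfr encodes the low-affinity neurotrophin receptor, and Fam150b (Alkal2) encodes a secreted ligand of the receptor kinases ALK and LTK.

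The upstream sequences below are shown because they belong to genes whose levels were higher in the Sox10-positive cells: 3 with a short SOX-type motif close to the start, and 2 marker genes with none there. Each is the 100 bases before an annotated start, 5′ to 3′ on the gene's strand, from RefSeq with build GRCm38.p6. The motif searched was ACAAAG or ACAATG on both strands within 250 bases before the start, and its match is in capitals.
Gpx2: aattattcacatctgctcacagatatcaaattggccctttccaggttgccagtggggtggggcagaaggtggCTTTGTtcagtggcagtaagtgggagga
Cldn10: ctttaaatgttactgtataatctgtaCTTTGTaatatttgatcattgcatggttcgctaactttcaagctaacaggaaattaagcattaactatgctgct
Ak1: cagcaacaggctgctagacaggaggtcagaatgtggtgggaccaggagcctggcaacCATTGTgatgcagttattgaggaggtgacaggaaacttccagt
Ngfr: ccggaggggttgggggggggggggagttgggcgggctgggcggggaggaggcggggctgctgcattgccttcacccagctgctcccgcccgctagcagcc
Fam150b: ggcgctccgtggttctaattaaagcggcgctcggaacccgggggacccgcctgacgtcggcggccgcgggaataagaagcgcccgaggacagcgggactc
The stretches are chr12:76795555-76795654 on the minus strand for Gpx2, chr14:118787771-118787870 on the plus strand for Cldn10, chr2:32621658-32621757 on the plus strand for Ak1, chr11:95587699-95587798 on the minus strand for Ngfr and chr12:30884224-30884323 on the plus strand for Fam150b. Cldn10 and Ak1 have further annotated starts whose windows held no match. Of the 39 genes called higher below, 29 had an entry and 8 of these (27.6%) held the SOX motif before at least 1 of their starts, against 20.2% of 2352 matched genes of at least 50 CPM (a gene's UMIs per 1000000 UMIs of a cell set) and 28.2% of all 27025 genes of the table. Counted per promoter, 25.2% of all 32851 held it. Of 62 matched genes called lower, 15 (24.2%) held it. The ETS-type motif AGGAAG stood in 12 of the 29 (41.4%), in 22 of the 62 (35.5%), in 30.4% of the genes of at least 50 CPM and in 32.3% of all genes, or 29.5% of promoters counted singly. A match is a run of letters and not a measured binding site.

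The submandibular epithelium library held 39621166 UMIs, and 3767 of its barcodes passed the filter. The members were the deeper cells: their median was 13396 UMIs (quartiles 10790 and 16987) and 3467 genes, against 8636.5 UMIs and 2750.5 genes in Sox10-0 cells. When each cell was thinned to 4000 UMIs the medians were 1693 and 1715 genes. The median mitochondrial share was 4.47% in members and 4.80% in Sox10-0 cells, and the ribosomal protein genes took 24.4% and 23.6% of UMIs. Barcodes of this library recurred in the parotid epithelium library (14), the submandibular mesenchyme library (25) and the parotid mesenchyme library (23). Of the members, 12 had such a barcode, and without all shared barcodes 40 genes were called higher and 83 lower, against 39 and 81 with them. Doublets were not removed.

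Sox10 lies on chromosome 15 at 79154908 to 79165240, minus strand (GRCm38, the build called mm10). The members held 1466 Sox10 UMIs in all, or 112 CPM. Most members rested on a single molecule: 552 had 1 UMI, 245 had 2, 83 had 3 and 41 had 4 or more, with a maximum of 6. Members made up 25.8% of the Epcam-positive cells (exact 95% interval 24.4 to 27.3%). At a fixed depth of 4000 UMIs the share with a Sox10 UMI was 11.2% (384 of 3441 cells, interval 10.1 to 12.3%), with 7 members and 119 Sox10-0 cells too shallow to thin. Mesenchymal cells of the submandibular mesenchyme library had a Sox10 UMI in 1.10% of 4085 cells at a median depth of 5402 UMIs, and in 0.764% after thinning. These mesenchymal cells were chosen without regard to Sox10, so those with a Sox10 UMI are among the 95 Sox10-positive Epcam-0 cells described below. Their share is thus not a background level of cells that lack Sox10. The share in epithelium lay above it. A Sox10-0 cell may still have held Sox10 RNA that was not captured.

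The other marker genes of the label were found together with Sox10 more often than without it. The label and its markers were set with earlier results of these data known, so their joint detection is no independent support. Of the members, 460 (49.9%) had UMIs of all 3 of Ngfr, Etv5 and Fam150b, 353 had 2 of them, 89 had 1 and 19 (2.06%) had none. Among Sox10-0 cells 447 (16.9%) had all 3 and 867 (32.8%) had none. At 4000 UMIs the shares with all 3 were 10.5% and 4.43%, and those with none were 11.4% and 43.2%. Ngfr alone was seen in 30.0% of thinned members and 12.6% of thinned Sox10-0 cells (62.3% and 23.2% before thinning), and in 5.29% of thinned mesenchymal cells. Fam150b was seen in 76.8% and 45.4% of thinned cells (94.5% and 56.9% before), and in 1.44% of mesenchymal cells. Etv5 was seen in 40.8% and 26.3% (79.4% and 45.6% before), and in 7.08% of mesenchymal cells. The markers were thus more frequent in the members but not restricted to them, and where the cells lay in the gland was not measured.

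Markers of mesenchymal cells, macrophages and neurons were low in both cell sets. The summed level of 12 mesenchymal markers was 6.93 CPM in members and 9.03 CPM in Sox10-0 cells, that of 8 macrophage markers 0.533 and 1.40 CPM, and that of 9 neuronal markers 2.13 and 1.48 CPM. The 15 neural crest and glial markers summed to 50.1 and 33.7 CPM, most of it from Erbb3, and 5 of the 15 had no UMI in either set. The 8 endothelial markers summed to 30.3 and 24.9 CPM, nearly all from Egfl7. The 4 measured chondrogenic markers summed to 128 and 80.6 CPM, nearly all from Col2a1, and the 8 periderm markers to 87.6 and 319.6 CPM, most of it from Sfn. The part of such cells in the results was not tested. Epcam was level between the sets, at 683 CPM in members and 669 CPM in Sox10-0 cells (ratio 1.02, interval 0.995 to 1.05).

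A gene was called higher or lower when it reached 50 CPM in the set where it was higher and its pooled levels differed by at least 1.5-fold. Of 2914 genes at that level, 40 were called higher in the members (1.37%), 1 of them Sox10 by construction, and 81 lower (2.78%). Larger differences were few: 8 genes (0.275%) were at least 2-fold higher and 35 (1.2%) at least 2-fold lower. The median log2 ratio over the 2914 genes was 0.01. Apart from Sox10 the genes called higher differed by at most 2.42-fold, while those called lower included Krt15, Krt19 and Anxa2 at over 5-fold. In the scatter of pooled levels the lower genes therefore reach farther from the diagonal than the higher ones.

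**Figure D1:**
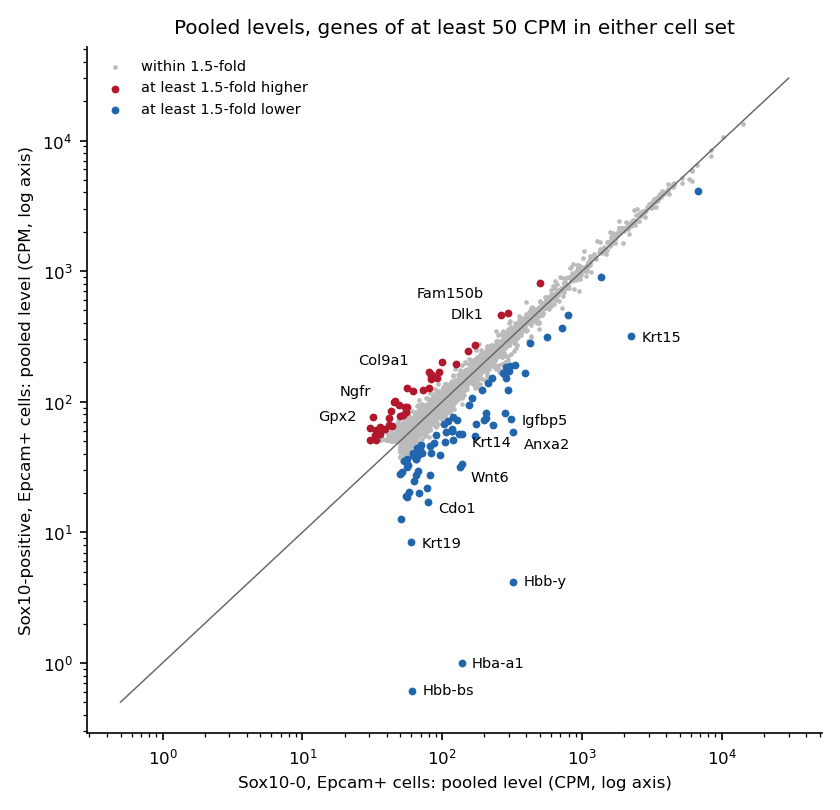
Each point is a gene of at least 50 CPM in either set, with its pooled level in the 2646 Sox10-0 cells (x axis, CPM, log axis) and in the 921 Sox10-positive cells (y axis, CPM, log axis); Sox10 is left out. The line marks equal levels; 39 genes at least 1.5-fold higher are red and 81 at least 1.5-fold lower are blue, with Krt15 and Krt19 far below the line and 3 haemoglobin genes that rest on 1 barcode farthest from it.

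Several signalling genes were called higher. Ngfr, on chromosome 11 at 95568818 to 95587735, stood at 98.8 CPM in members and 45.1 CPM in Sox10-0 cells (ratio 2.19, interval 2.02 to 2.38). Fam150b, on chromosome 12 at 30884322 to 30893854, stood at 482 and 295 CPM (ratio 1.63, interval 1.58 to 1.69). Its receptors Alk and Ltk were all but absent, with 0 and 1 UMIs in the members. Dlk1, which encodes a membrane protein of the Notch ligand family and is imprinted, stood at 463 and 262 CPM (ratio 1.77). Shisa2, whose protein holds back FGF and WNT receptors in the endoplasmic reticulum, stood at 127 and 56.1 CPM (ratio 2.26, interval 2.11 to 2.43). Sfrp1, a secreted WNT inhibitor, had a ratio of 1.55.

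Genes downstream of FGF signalling were split. Of the list's 11 genes at 10 CPM or more, 9 reached 50 CPM, and 2 were called higher and 1 lower, with a median log2 ratio of 0.34, against -0.04 over all 7361 genes at 10 CPM or more. At a low immediate early level and with cluster weighting none of the list was called, and with depth weighting 1 was higher and 1 lower. Etv4, an ETS factor, stood at 152 CPM in members and 92.0 CPM in Sox10-0 cells (ratio 1.66, interval 1.56 to 1.76). Its relative Etv5, a marker of the label, stood at 136 and 93.2 CPM, and its ratio of 1.46 (interval 1.37 to 1.55) missed the call. Ccnd1, the cyclin that drives entry into the cell cycle, stood at 120 and 62.3 CPM (ratio 1.93). Dusp6, a phosphatase that dampens ERK signalling, had a ratio of 1.39, Spry1 one of 1.09 and Spry2 one of 0.73, the last 2 being feedback inhibitors of receptor kinases. Egr1, an immediate early gene of the list, was the gene called lower, 2.14-fold. Of 4 FGF ligand and receptor genes at 10 CPM or more, Fgfr1 alone reached 50 CPM and was not called, at 67.3 and 49.9 CPM. Fgfr2, at 18.7 and 23.6 CPM, was too low for a call.

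Genes of cartilage-type matrix were higher together. Of the 5 in that list at 10 CPM or more, 4 were called higher and none lower, and the median log2 ratio was 0.92. With depth weighting 1 call was left (Col9a1, median 0.56), and at a low immediate early level (median 0.33) or with cluster weighting (median 0.16) none was. Col9a1, an alpha chain of collagen IX, stood at 169.7 CPM in members and 80.4 CPM in Sox10-0 cells (ratio 2.11, interval 1.99 to 2.24). Col9a3, another chain of the same collagen, had a ratio of 1.69, Col2a1, the chain of collagen II, one of 1.59, and Mia, a small secreted protein of cartilage and melanoma, one of 1.90. The list was drawn up with earlier results of these data known, so its count says nothing independent about the direction. Of 13 basement membrane genes at 10 CPM or more, 3 reached 50 CPM and none of these was called, and the median log2 ratio of the 13 was -0.14.

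The other genes with the largest ratios had diverse roles. Gpx2, a glutathione peroxidase of epithelia, stood first after Sox10 at 77.0 and 31.8 CPM (ratio 2.42, interval 2.20 to 2.66). Cldn10, a tight junction claudin that forms ion-selective pores, stood at 101 and 46.1 CPM (ratio 2.20). Hs3st1, which sulphates heparan sulphate, had a ratio of 2.07, and Selm, a selenoprotein of the endoplasmic reticulum, one of 2.04. Psat1, an enzyme of serine synthesis, had 1.92, Glrx, a glutaredoxin, 1.81 and Ak1, an adenylate kinase, 1.81. Tfap2b, an AP-2 transcription factor of the face and ectoderm, stood at 157 and 82.8 CPM (ratio 1.90). It was the single gene called of 8 oral and arch ectoderm transcription factors that reached 50 CPM, and the median log2 ratio of the 22 at 10 CPM or more was 0.05. In the Sox family, Sox9 stood at 127 and 100.5 CPM (ratio 1.26) and was not called.

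Keratins were lower in the members. Of 8 keratin genes at 10 CPM or more, 5 reached 50 CPM, 4 of these were called lower and none higher, and the median log2 ratio of the 8 was -2.48. With cluster weighting 1 call was left (median -0.30), and at a low immediate early level 2 were (median -0.51). Krt15, a keratin of basal cells on chromosome 11, stood at 319 CPM in members and 2246 CPM in Sox10-0 cells, 7.05-fold lower (interval 6.83 to 7.28). Krt19, a keratin of duct and simple epithelium, was 7.12-fold lower (8.46 and 60.2 CPM), Krt14, another basal keratin, 2.74-fold (72.4 and 198 CPM) and Krt18 1.72-fold (192 and 331 CPM). Krt5, the basal partner of Krt14, stood at 4.42 and 40.2 CPM, under the level for a call. Krt8, the partner of Krt18, differed by less, at 163 and 210 CPM.

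In members 639 cells (69.4%) had a Krt15 UMI and 432 (46.9%) a Krt14 UMI, while 76 (8.25%) had a Krt19 UMI, 47 (5.10%) a Krt5 UMI and 35 (3.80%) a Krt7 UMI. At 4000 UMIs per cell the median Krt15 count was 0 in members and 5 in Sox10-0 cells, and the upper quartiles were 1 and 16. Among thinned cells 60.0% of members and 20.9% of Sox10-0 cells had no Krt15 UMI. Free RNA can set a floor to such shares: of 18 mesenchymal cells in the same library, at a median of 5117.5 UMIs, 3 had a Krt15 UMI and none a Krt14, Krt5, Krt19 or Krt7 UMI. At 4000 UMIs a Krt15 UMI was seen in 40.0% of members and in 1 of 17 such cells (5.88%, interval 0.149 to 28.7%).

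WNT ligand genes were lower as well. Wnt6 stood at 31.5 CPM in members and 135 CPM in Sox10-0 cells, 4.28-fold lower (interval 3.86 to 4.75), and was the single gene of the 5 ligands at 10 CPM or more that reached the level for a call. Below that level Wnt4 stood at 12.5 and 44.6 CPM, Wnt10a at 6.10 and 20.7 CPM and Wnt7b at 3.66 and 25.2 CPM, each lower in the members. Of BMP genes, the response genes Id1 (2.55-fold) and Id3 (1.51-fold) were called lower and Id2 (ratio 1.61) higher, which were the 3 of the list that reached 50 CPM. Hes1, a target of Notch signalling, was 1.94-fold lower at 367 and 713 CPM, called as 1 of the 2 Notch genes that reached 50 CPM, of 8 at 10 CPM or more.

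Further genes called lower mark basal, duct or outer epithelium or act in adhesion and metabolism. Anxa2, a membrane-binding annexin, stood at 58.1 and 321 CPM (5.52-fold lower, interval 5.12 to 5.95), Igfbp5, which binds insulin-like growth factors, at 73.5 and 312 CPM (4.24-fold) and Sfn, the 14-3-3 protein of stratified epithelium, at 81.3 and 279 CPM (3.43-fold). Cdo1, an enzyme of cysteine breakdown, was 4.66-fold lower, Dapl1 4.15-fold, F3, the tissue factor of clotting, 4.0-fold, and Klf5, a transcription factor of epithelial progenitors, 2.93-fold. Of 14 duct and luminal genes at 10 CPM or more, 4 reached 50 CPM and 2 were called lower, Krt19 and the claudin gene Cldn4 (1.92-fold), and none higher. Itm2a, 3.55-fold lower, was over 10 times more abundant in Epcam-0 cells of another library and may be free RNA. Hbb-y, Hbb-bs and Hba-a1 met the call as well, but their level in Sox10-0 cells came from 1 barcode, without which their log2 ratios were 0.23, 0.46 and 0.23.

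Immediate early genes differed in the same cells. Of 9 immediate early and heat shock genes that reached 50 CPM, 7 were called lower in the members (Jun, Junb, Jund, Fos, Egr1, Dusp1 and Hspb1) and none higher, and the 17 genes of the list summed to 972 CPM in members and 1846 CPM in Sox10-0 cells. Such genes respond to many signals within minutes. Cell cycle genes did not differ in this way: none of the 25 S phase and 23 G2/M genes that reached 50 CPM was called. Their sums were 3655 and 3707 CPM for S phase and 4900 and 4683 CPM for G2/M.

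The calls depended on depth, on immediate early level and on the composition of the Sox10-0 set, whose part in the differences was not tested. With Sox10-0 cells weighted to the members' distribution of UMIs per cell, 12 genes were called higher and 45 lower. Among cells with a low immediate early level (694 members, 1090 Sox10-0 cells) these were 6 and 15, and with Sox10-0 cells weighted to the members' clusters 0 and 6, a setting that by its construction compares cells alike in the same genes. Scaling by the trimmed mean of M-values gave 50 higher and 66 lower. Krt15 was 7.05-fold lower without weighting, 4.27-fold with depth weighting, 3.63-fold at a low immediate early level and 1.77-fold with cluster weighting. Ngfr had ratios of 2.19, 1.76, 1.43 and 1.20 in the same order, and Fam150b 1.63, 1.35, 1.13 and 1.09. At a fixed 4000 UMIs the ratio of Ngfr was 2.55 and that of Fam150b 1.90, and 67 genes were called higher and 120 lower.

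**Figure D2:**
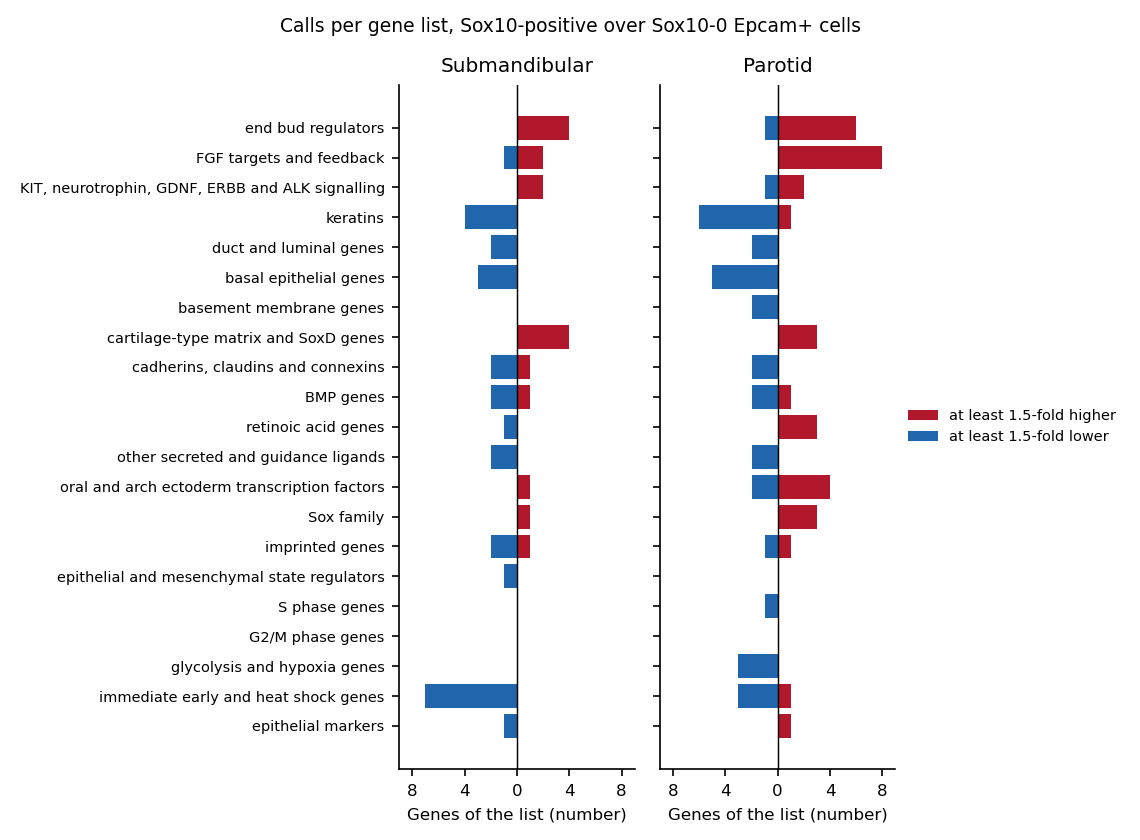
Bars give the number of genes of each list at least 1.5-fold higher (red, right) or lower (blue, left) in Sox10-positive than in Sox10-0 Epcam-positive cells, for the submandibular and the parotid library; lists with at least 3 genes at 50 CPM are drawn. In the submandibular library the bars run left for keratins (4), basal epithelial genes (3) and immediate early genes (7). They run right for cartilage-type matrix (4) and for end bud regulators (4, of which Sox10 was fixed by the rule). The end bud list also counts Ngfr and Fam150b, markers of the label. Without Sox10 it had 3 calls, with depth weighting 1, and with cluster weighting or at a low immediate early level 0.

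Members were found in all clusters but 1, and most of them in 4. Clusters made from 2000 variable genes without Sox10 numbered 11 and are kept as numbers. Clusters 3, 7, 5 and 6 held 159, 192, 256 and 121 members, and at 4000 UMIs 21.1%, 20.8%, 19.6% and 16.7% of their Epcam-positive cells had a Sox10 UMI. The share was 10.5% in cluster 2, 7.74% in cluster 1, 2.72% in cluster 8, 1.57% in cluster 10 and 1.36% in cluster 9. In clusters 8 and 10 the median depth was 9740 and 7148 UMIs, and in cluster 9 it was 5846, against 10397.5 to 14330 in clusters 3, 5, 6 and 7. The shares above are those at 4000 UMIs, and the part of depth in them was not tested.

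The clusters rich in members were low in Krt15, Krt19 and immediate early genes, while Krt14 was not lowest there. Krt19 stood at 3.12 to 8.18 CPM in clusters 3, 5, 6 and 7, and at 40.9, 364 and 61.8 CPM in clusters 8, 10 and 9. Krt14 stood at 56.1 to 94.6 CPM in the former, at 299 and 513 CPM in clusters 8 and 9, but at 55.5 CPM in cluster 10. Among clusters with at least 50 Epcam-positive cells, Krt15 ran from 100.1 CPM in cluster 7 to 5611 CPM in cluster 9, and Ngfr from 113 CPM to 3.18 CPM in the same clusters. The 17 immediate early genes summed to 846 to 976 CPM in clusters 3, 5, 6 and 7, and to 2063, 4456 and 2874 CPM in clusters 8, 10 and 9. G2/M genes summed to 1526 CPM in cluster 3, 3177 in cluster 7, 7196 in cluster 5 and 5012 in cluster 6, so the clusters with the most members differed in their cell cycle genes. Cluster 4 had a like Sox10 share of 25% (12 of 48 cells, interval 13.6 to 39.6%). It stood apart, with a median mitochondrial share of 0.0856% and a median depth of 4194 UMIs. Nearly all of its haemoglobin, 20609.5 CPM, came from the 1 barcode that held the haemoglobin of the Sox10-0 cells.

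**Figure D3:**
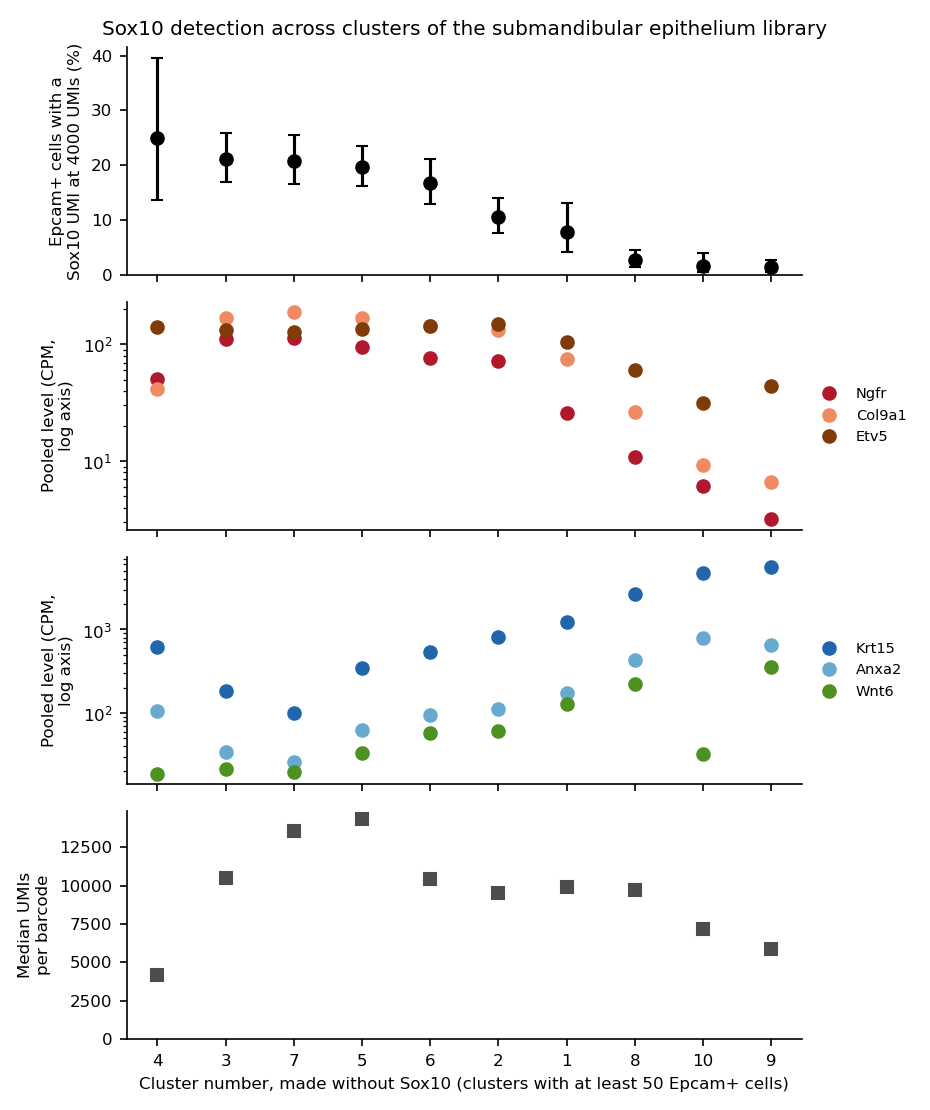
Clusters of the submandibular epithelium library with at least 50 Epcam-positive cells, in order of the share of these cells with a Sox10 UMI at 4000 UMIs (top, %, bars are exact 95% intervals). Below are pooled levels of Ngfr, Col9a1 and Etv5, then of Krt15, Anxa2 and Wnt6 (CPM, log axes), and the median UMIs per barcode; Krt15 is lowest in cluster 7 at 100.1 CPM and highest in cluster 9 at 5611 CPM.

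The members of different clusters differed among themselves along the same genes. Krt15 in the members stood at 90.1 CPM in cluster 7, 151 in cluster 3, 302 in cluster 5 and 406 in cluster 6, and at 1872 CPM in the 13 members of cluster 9. Ngfr in the members stood at 123, 118, 101 and 91.6 CPM in clusters 7, 3, 5 and 6, at 22.4 CPM in the 33 members of cluster 8 and at 0 in those of cluster 9. Fam150b in the members ran from 182 CPM in cluster 10 and 187 in cluster 9 to 592 CPM in cluster 8, with 385 in cluster 7. Clusters were made from these same genes, so these values only describe them.

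Cells just inside and just outside the rule can be compared by their number of Sox10 UMIs. Their median depth went from 8636.5 UMIs in cells with 0 Sox10 UMIs to 12902.5, 13634, 14822 and 16540 in cells with 1, 2, 3 and 4 or more. Ngfr stood at 45.1, 93.5, 92.7, 119 and 148 CPM across these classes, so it differed between 0 and 1 UMI and again between 2 and 4 or more. Fam150b stood at 295, 487, 458, 489.99 and 527 CPM, and Etv5 at 93.2, 138, 131, 127 and 162 CPM. Col9a1 stood at 80.4, 162, 173, 178 and 217 CPM. The genes lower in members had their widest step between 0 and 1 UMI: Krt15 stood at 2246, 337, 347, 227 and 154 CPM and Anxa2 at 321, 62.8, 59.3, 40.0 and 36.5 CPM. Wnt6 stood at 135, 36.6, 27.6, 21.2 and 17.6 CPM. These classes are a range of counts and not cell types.

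**Figure D4:**
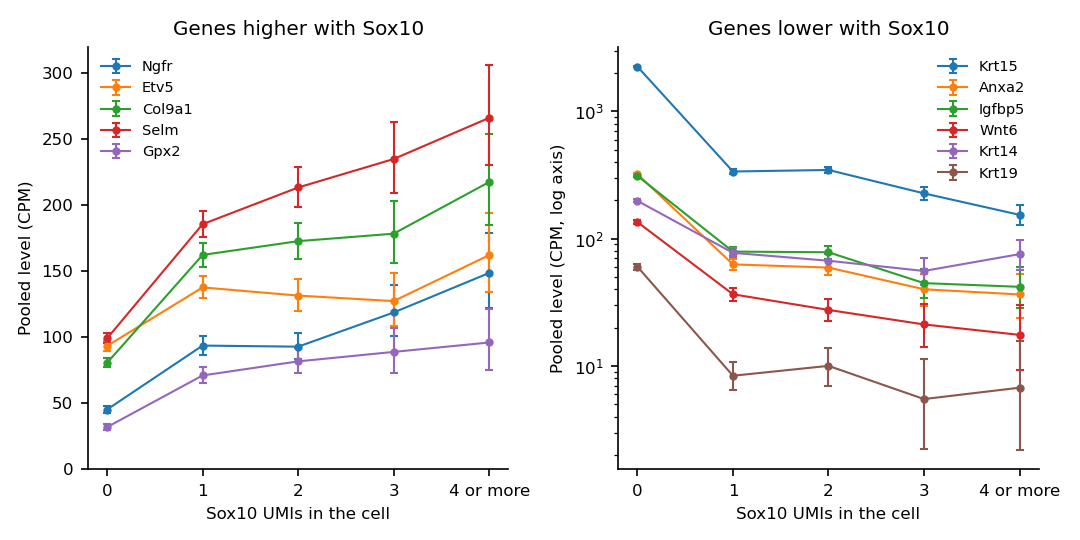
Pooled levels (CPM, with exact 95% Poisson intervals) in Epcam-positive cells with 0, 1, 2, 3 and 4 or more Sox10 UMIs (2646, 552, 245, 83 and 41 cells), for 5 genes higher (left, linear axis) and 6 genes lower (right, log axis) in the members. Krt15 shows its widest step between 0 and 1 UMI, at 2246 and 337 CPM.

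The same rule in the parotid epithelium library, a separate library with 14 barcodes in common, gave 186 Sox10-positive and 1330 Sox10-0 cells, at median depths of 8924 and 7086.5 UMIs. The share of Epcam-positive cells with a Sox10 UMI was 12.3% (interval 10.7 to 14%), and 7.48% (interval 6.14 to 9.01%) at 4000 UMIs, below the submandibular 11.2%. Both are single libraries, and gland and library cannot be told apart. Of 3008 parotid genes at 50 CPM, 129 were called higher (4.29%, Sox10 included) and 137 lower (4.55%), or 8.84% either way. At least 2-fold higher were 60 (1.99%) and lower 67 (2.23%), together 4.22%. With Sox10-0 cells weighted by depth these were 134 without Sox10 and 139, against 128 and 137 unweighted.

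Many submandibular calls were met again in the parotid. Of the 39 genes called higher without Sox10, 24 reached 50 CPM in the parotid library and 21 were called higher there, 53.8% of the submandibular and 16.4% of the parotid calls. Of the 81 called lower, 67 reached that level and 35 were called lower, 43.2% of the submandibular and 25.5% of the parotid calls. In all, 38 of the 39 and 71 of the 81 lay on the same side of 1. Over all 3008 parotid genes at 50 CPM, 4.29% were called higher, Sox10 included, and 4.55% lower. Their median log2 ratio was 0.03. The genes called in both included Ngfr, Shisa2, Col9a1, Etv4 and Fam150b on the higher side and Krt15, Krt19, Krt14, Anxa2 and Wnt6 on the lower side. With depth weighting only 12 submandibular genes were called higher and 45 lower, and with cluster weighting 0 and 6, so fewer could be met again.

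Marker ratios were wider in the parotid cells. Ngfr stood at 133 CPM in Sox10-positive and 15.2 CPM in Sox10-0 parotid cells (ratio 8.76, interval 7.12 to 10.8), Fam150b at 103 and 15.9 CPM (ratio 6.47) and Etv5 at 162 and 49.7 CPM (ratio 3.27). Col9a1 had a ratio of 8.46, Mia one of 7.52 and Ak1 one of 6.27. Of 12 FGF target genes at 10 CPM or more, 8 were called higher in the parotid cells and none lower. The 12 are counted at 10 CPM, while a call needs 50 CPM. Of all 3008 parotid genes at 50 CPM, 4.29% were called higher. The median log2 ratio of the 12 was 1.15, against 0.002 over all 7790 parotid genes at 10 CPM or more. Spry2 was among the 8 at a ratio of 2.40, against 0.73 in the submandibular cells. With cluster weighting the parotid genes called higher, Sox10 left out, were 16 against 128, and 9 of the 128 were among them. The FGF list was not counted in the parotid cells under that weighting. The level of Fam150b in Sox10-0 cells was 295 CPM in the submandibular and 15.9 CPM in the parotid library.

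For a few genes the values in the glands lay far apart. Gpx2 stood at 3.37 and 0.80 CPM in the parotid cell sets and Cldn10 at 5.06 and 2.60 CPM, against 77.0 and 101 CPM in the submandibular members. Ccnd1, with a ratio of 1.93 in the submandibular cells, had one of 1.06 (interval 0.828 to 1.33) in the parotid cells. Tfap2b was called lower in Sox10-positive parotid cells, at 50.6 and 178 CPM, and Nnat, an imprinted gene, was called higher there, at 705 and 316 CPM, each opposite to the submandibular call. Krt8 was also called higher in the parotid cells (ratio 2.19), where its submandibular ratio was 0.78. No difference between the glands was tested.

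**Figure D5:**
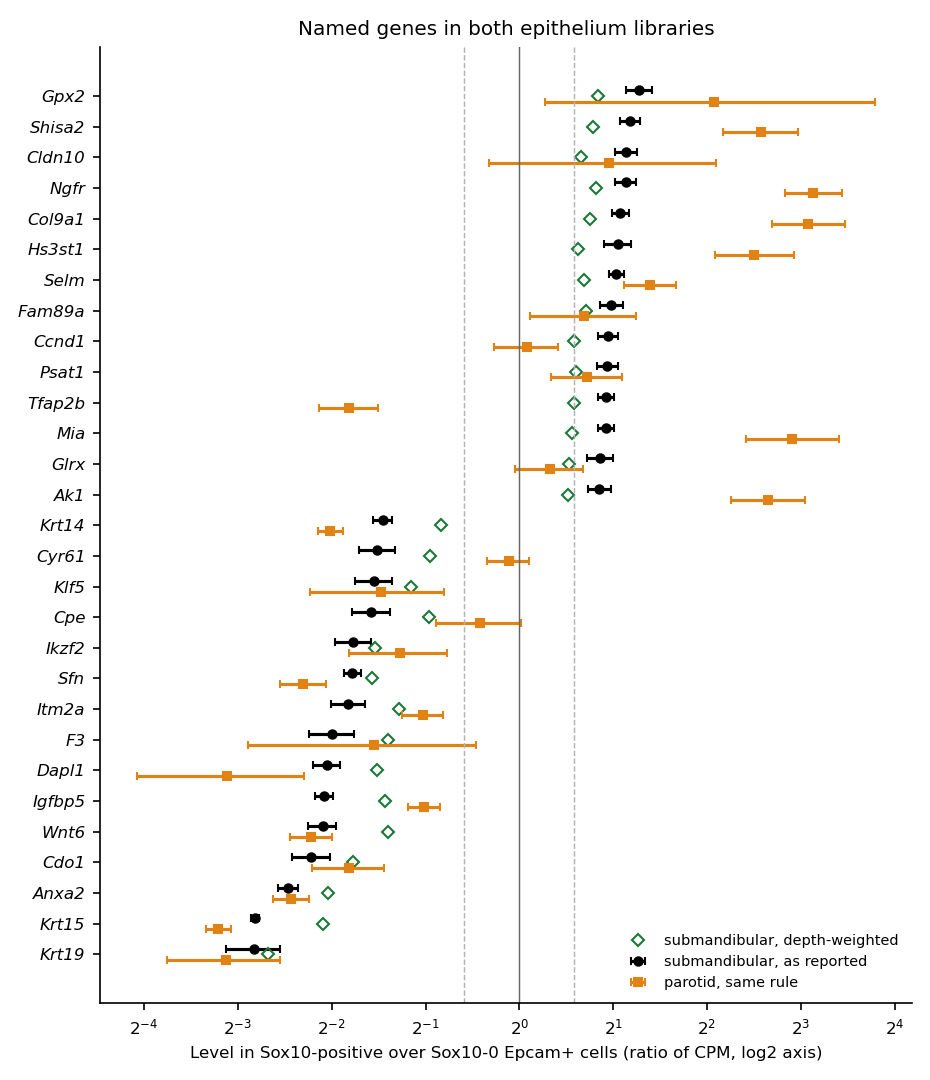
Ratio of pooled CPM in Sox10-positive over Sox10-0 Epcam-positive cells (log2 axis) for the 14 genes with the highest ratios besides Sox10 and the 15 with the lowest, in the submandibular library (black, with 95% counting intervals), the same with Sox10-0 cells weighted by depth (green diamonds) and in the parotid library (orange). Dashed lines mark 1.5-fold; Tfap2b lies on opposite sides of 1 in the glands, at 1.90 and 0.285.

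Sox10 RNA also occurred outside the epithelium. In the submandibular mesenchyme library 95 cells had a Sox10 UMI and no Epcam UMI, and 2 had both. The 95 cells held neural crest and glial RNA: Fabp7, of early glia, stood at 362 CPM (members 0.991) and Ednrb, an endothelin receptor gene, at 261 CPM (members 0.686). The crest and glial genes Foxd3 (34.6 CPM) and Cdh19 (52.5 CPM) had no UMI in the 921 members, where 3 UMIs would be 0.229 CPM. Conversely Fam150b, Gpx2 and Cldn10 had no UMI in the 95 cells, for which counting error allows up to 3.87 CPM each. Epcam was absent from the 95 cells by the rule that chose them.

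Some genes of the members were found in both kinds of Sox10-positive cell. Sox10, by which both sets were chosen, stood at 218 CPM in the 95 mesenchyme cells and 112 CPM in the members, Ngfr at 185 and 98.8 CPM, and Erbb3, a neuregulin receptor, at 85.0 and 33.7 CPM. Ccnd1 stood at 464 and 120 CPM. Col9a1 at 51.4 CPM, Mia at 49.3 CPM and Etv5 at 21 CPM (interval 12.8 to 32.4) were lower in the mesenchyme cells than in the members. The 4085 mesenchymal cells of that library held Etv5 at a like level, 17.5 CPM, with Col9a1 at 32.0 and Mia at 27.0 CPM. The 4085 were chosen without regard to Sox10 and held 98 Sox10 UMIs. They therefore share cells with the 95, and the levels are not of separate cells. Ngfr stood there at 18.0 CPM, Erbb3 at 3.45 CPM and Ccnd1 at 108 CPM. Of the markers of the label other than Sox10, which chose both sets, Ngfr and Etv5 were detected in both and Fam150b in the members alone.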

How the data were processed

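The deposited files hold raw UMI counts per gene and barcode, made by the authors with Cell Ranger 2.1.1 and build mm10 per the submitters' processing notes; the pool of about 10 glands and the Dispase step are given per the labels' protocols. Depth was 39621166 UMIs in the submandibular epithelium library and 14004908 in the parotid epithelium library.

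Counts were read with Python 3.11.15 and scipy 1.17.1. Barcodes under 500 genes or over 10% mitochondrial UMIs were dropped (14884 of 15351 stayed), and doublets were not called. UMIs were summed over each cell set, divided by the set's total and given as CPM; ratios carry an exact 95% conditional binomial interval, and shares of cells a Clopper-Pearson interval. Where 1 set had no UMI no ratio is printed. Intervals and floors of 3 UMIs cover counting error only. No test across genes was run. Thinning drew 4000 UMIs per cell without replacement. Clusters came from scanpy 1.11.5 (Leiden, 30 components, 15 neighbours, resolution 0.8). Trimmed-mean scaling with edgeR 4.0.16 was an alternative. The ratio, its interval, the call and the thinning were tested on simulated data, and the other steps were not.

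Named genes were the 15 called genes with the highest and the 15 with the lowest ratio, leaving out haemoglobin, mitochondrial, ribosomal, unnamed, sex-linked and immediate early genes, up to 4 genes per list with the largest ratio at 10 CPM or more, and the markers; others (such as Spry1, Spry2, Dusp6 and Fgfr1) were chosen after their values were seen, to show a list's spread. The members and gene lists were chosen with earlier results of these data known. Of 27998 gene identifiers 27722 matched GENCODE M21. Rian, Cnmd and Snorc of the lists had no matching symbol. The Sox10 promoter is not shown, and some crest and glial genes are not reported here.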

Additional observations from a re-analysis of the deposited data

Results flagged for a closer look

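Tfap2b and Nnat were called in opposite directions in the glands. Tfap2b had a ratio of Sox10-positive over Sox10-0 cells of 1.90 in the submandibular library and 0.285 in the parotid library. Nnat had 0.583 and 2.23. The differences were not tested, as each gland is 1 library. With Sox10-0 cells weighted by depth the submandibular ratios were 1.49 for Tfap2b and 0.772 for Nnat, both short of the call.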

How the results depend on the processing

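Counts of submandibular genes called higher and lower were 39 and 81. The higher count became 69 with the mean of per-cell CPM. It became 67 at 4000 UMIs. The pairs were 12 and 45 with depth weighting, 19 and 50 at 1000 genes and 5% mitochondrial UMIs, 7 and 35 at a ratio of 2, 89 and 209 at 20 CPM and 619 and 1980 with no minimum. Alternatives chosen after seeing the data gave 0 and 6 with cluster weighting and 6 and 15 at a low immediate early level. All 12 higher genes under depth weighting and 42 of the 45 lower ones were among the original calls. Parotid counts, 128 and 137, became 16 and 10 with cluster weighting, 59 and 67 at a ratio of 2, 303 and 379 at 20 CPM and 1323 and 2035 with no minimum.

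Genes called higher in both glands, 21, became 34 with per-cell CPM and at 4000 UMIs, 5 with depth weighting and at a ratio of 2, 9 under the stricter cell filter, 0 with cluster weighting, 2 at a low immediate early level, 45 at 20 CPM and 196 with no minimum. Those called lower in both, 35, became 22 under the stricter filter, 3 with cluster weighting, 10 at a low immediate early level, 18 at a ratio of 2, 95 at 20 CPM and 690 with no minimum. The share of Epcam-positive cells with a Sox10 UMI, 25.8%, became 11.1% at 4000 UMIs with Epcam also required after thinning, 31.1% under the stricter filter and 23.8% without the top 5% of UMIs. Submandibular genes tested numbered 2914 as reported and at a ratio of 2, and 2869 under the stricter filter. They numbered 5336 at 20 CPM and 13420 with no minimum. Parotid genes tested were 3008, 3008, 3022, 5609 and 12227 in the same order. The cause of the changes was not tested.

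The 50 called genes among the named genes were followed, which were picked largely for their ratios and are not all called genes. Over these and 14 alternatives, 374 of 700 ratios moved by less than their interval, 320 moved farther on the same side and 6 turned. Those were log2 ratios of haemoglobin genes without cells under 1% mitochondrial UMIs (Hbb-y 0.17, Hbb-bs 0.46, Hba-a1 0.37) and without the haemoglobin barcode (0.23, 0.46 and 0.23). Of 459 list counts, 313 stayed within 1.5-fold and 146 did not. No paired analysis was possible because each group is 1 library. Cells with few Sox10 molecules limit the rule: with 1 UMI in 552 of 921 members, a deeper library may place cells differently.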
